A study of Sus scrofa with 61 samples.

Results

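The nuclear genes of the mitochondrial respiratory chain were followed in longissimus muscle of pig fetuses at the end of gestation. They are the subunits of complex I, complex III, complex IV and the ATP synthase whose array names begin with NDUFA, NDUFB, NDUFC, NDUFS, NDUFV, UQCR, COX4I, COX5A, COX5B, COX6A, COX6B, COX6C, COX7A, COX7B, COX7C, COX8 or ATP5. A probe was used when, in some group, the scanner software marked it well above background on 80% or more of that group's arrays. Of 193 probes with such a name, 190 passed, out of 42436 passing probes among 60305 on the array. They stand for 75 genes, of which 40 had more than 1 probe. The 3 probes that did not pass were well above background on 0 or 1 array: they were the only probe of the assembly factor NDUFAF1 and further probes of COX7C and NDUFB5. The weakest probe that passed, a second probe of NDUFS1, was above background on 39 of the 61 arrays, and 181 of the 190 were so on every array. The prefixes also caught 5 genes that are not subunits, namely the complex I assembly factors NDUFAF3 and NDUFAF4, NDUFA4L2, and the ATP synthase relatives ATP5S and ATP5SL. COX6A2, COX8A, NDUFS7, NDUFA5, NDUFB4 and NDUFB10 were not analysed here, since no probe carries their name.

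Muscle was taken from 61 male fetuses at caesarean, at 90 or 110 days of gestation, and each RNA was hybridized to its own one-colour Agilent array. Large White (LW) is a lean European breed, and Meishan (MS) is a Chinese breed known for low piglet mortality. There were 8 purebred LW fetuses at day 90 and 9 at day 110, and 8 purebred MS fetuses at day 90 and 7 at day 110. LWMS fetuses, from MS sows and LW boars, numbered 8 at each age. MSLW fetuses, from LW sows and MS boars, numbered 8 at day 90 and 5 at day 110. Semen of LW and MS boars was pooled for each insemination, and a sow could carry both genotypes at once: MS and LWMS fetuses shared MS sows, and LW and MSLW fetuses shared LW sows. The labels do not tie a fetus to a sow. Littermates were therefore counted as separate fetuses, p-values measure the spread between these fetuses only, and the breed of the sow cannot be told apart from the sows themselves.

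Complex I takes electrons from NADH, complex III passes them to cytochrome c, and complex IV hands them to oxygen. Protons pumped on the way drive the ATP synthase, whose F1 head makes ATP and whose membrane ring of c subunits turns. A few subunits are encoded in mitochondrial DNA and the rest, described here, in the nucleus. Several nuclear subunits of complex IV exist in a ubiquitous form and in a form of heart and skeletal muscle, and the muscle forms are known to replace the ubiquitous ones as mammalian muscle matures.

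Values are quantile-normalized log2 intensities, on which a difference of 1 is a doubling. For each gene the probe with the highest mean was used, and differences between groups are those fitted by limma over all 8 groups and all 42436 probes, with their SE. A gene is said to have risen, fallen or differed when its p-value, adjusted by Benjamini and Hochberg's method over all probes, was under 0.01. Levels are given for 1 gene at a time, because the intensities of different probes do not compare. Arrays of 1 group correlated at 0.954 to 0.992. One MSLW fetus at day 90 stood apart, with a correlation to the mean of its group of 0.967, against 0.987 or more on the other arrays, and it had 752 spots marked non-uniform. Counts without it differed from those below by no more than 2 genes in any comparison.

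The chain rose between day 90 and day 110 in every genotype. Of the 75 genes, 68 were higher at day 110 in LW, where 21.8% of all probes were higher and 23.5% lower. The count was again 68 in MS (all probes 28.6% higher and 28.1% lower), LWMS (25.1% and 25.7%) and MSLW (20.8% and 23.8%). The same 68 genes rose in all 4 genotypes, against 15.5% of all probes. The calls of ATP5E (0.16) and NDUFC2 (0.40) in MS were the least stable of these among the named genes: both were lost with the median signal, the deposited values, normexp background or no filter on dim probes. Only COX6A1 and COX7A2L fell, in all 4 genotypes. ATP5G2, COX4I2, COX7A2, NDUFA4L2 and NDUFS5 did not pass in any genotype. The 75 genes had a median change of 0.83 for LW, 0.99 for MS, 0.89 for LWMS and 0.90 for MSLW, and that of all probes was 0.02 to 0.04. Without the 5 genes that are not subunits, 64 of 70 rose in each genotype.

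The rise separated single fetuses. Every day 110 fetus lay above every day 90 fetus for 67 of the 75 genes in LW (10.4% of all probes), 66 in MS (18.6%), 65 in LWMS (14.1%) and 59 in MSLW (12.4%). For 56 genes this held in all 4 genotypes, as it did for 6.47% of all probes. The median over the 75 genes, each centred on its mean, ran from -0.63 to -0.41 in LW fetuses at day 90 and from 0.11 to 0.45 at day 110. In MS fetuses it ran from -0.52 to -0.25 and then from 0.51 to 0.65, so that the lowest MS fetus at day 110 lay above the highest LW fetus of that age. LWMS fetuses at day 110 (0.41 to 0.55) and MSLW fetuses (0.31 to 0.63) overlapped both. Several probes of a gene moved alike with age: in 30 to 32 of the 40 genes with more than 1 probe, every probe was called in the same direction, and in none were probes called in opposite directions.

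**Figure D1:**
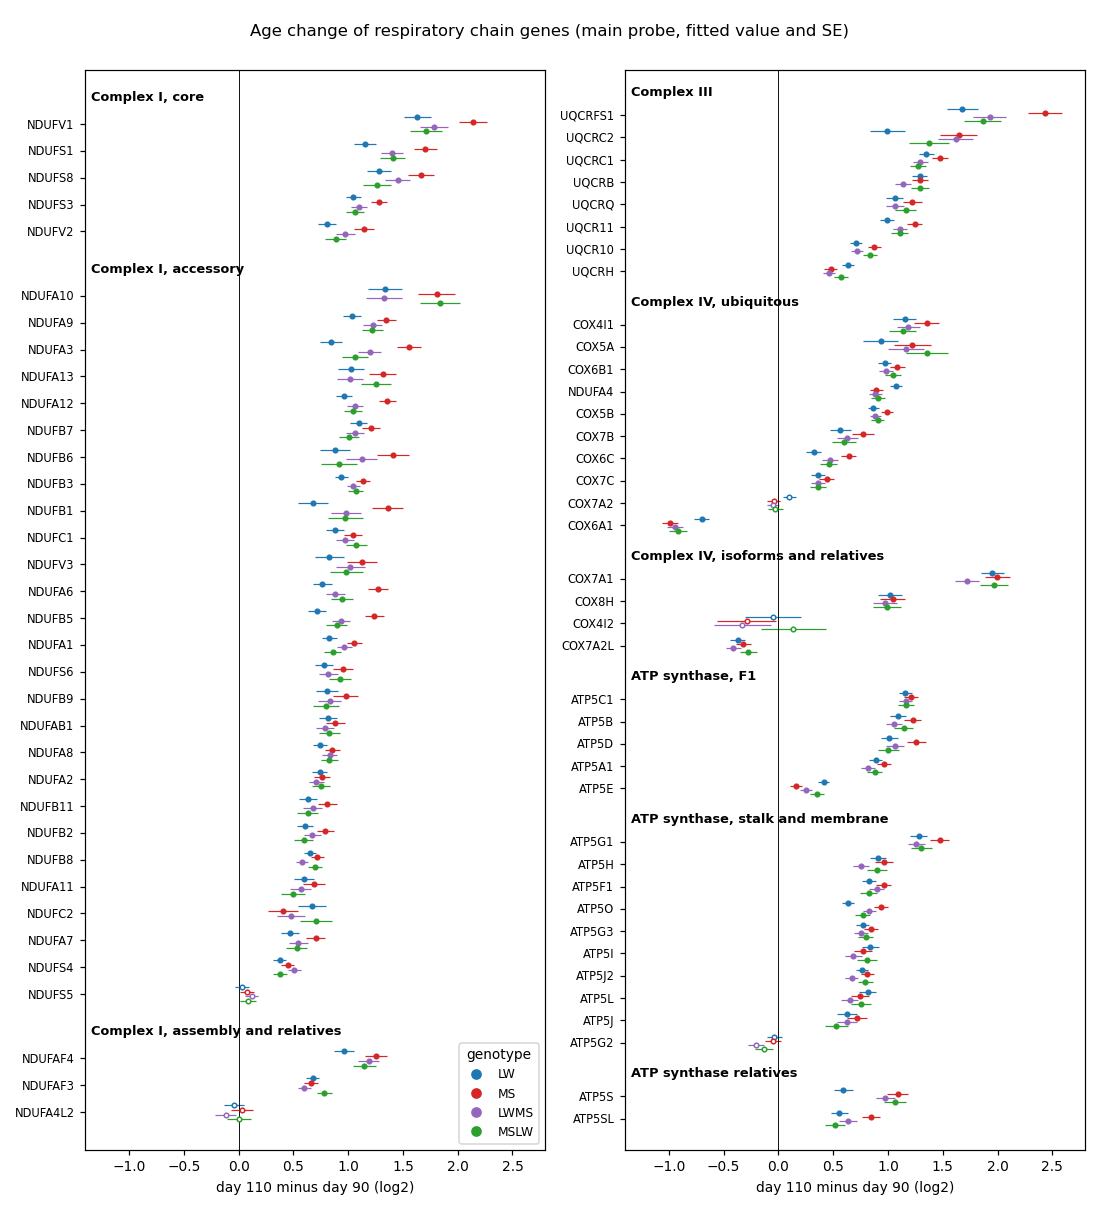
Change from day 90 to day 110 on the log2 scale (x axis) by gene, grouped by complex and with 1 of the 75 genes not drawn, with 1 point per genotype and the SE as a bar. Filled points passed an adjusted p of 0.01, and in all 4 genotypes COX7A1 and UQCRFS1 lie far to the right of 0 while COX6A1 and COX7A2L lie to the left.

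In complex I, the entry point for electrons from NADH, all 6 core subunits measured were higher at day 110 in each genotype, by a median of 1.1 in LW, 1.48 in MS, and 1.31 and 1.20 in the LWMS and MSLW crosses. NDUFV1, which carries the flavin that accepts electrons from NADH, changed most among them. In LW its lowest, median and highest values were 8.96, 9.25 and 9.60 at day 90 and 10.37, 11.01 and 11.35 at day 110. In MS they were 9.27, 9.45 and 9.85, then 11.35, 11.59 and 12.03. The groups did not overlap in either breed, and the fitted rise was 1.63 ± 0.12 in LW, 2.14 ± 0.13 in MS, and 1.78 ± 0.13 and 1.71 ± 0.14 in the LWMS and MSLW crosses (SE, largest adjusted p from limma 2e-15). NDUFS1, the largest iron-sulfur subunit, rose by 1.16 ± 0.10 in LW and 1.71 ± 0.11 in MS. NDUFS8, another iron-sulfur subunit, rose by 1.28 ± 0.11 and 1.67 ± 0.12. NDUFS3, of the arm that leads to ubiquinone, rose by 1.05 to 1.28 in the 4 genotypes, and NDUFV2, beside the flavin, by 0.81 to 1.15.

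Of the 27 accessory subunits of complex I, 26 rose in each genotype. NDUFA10 rose by 1.34 ± 0.16 in LW and 1.81 ± 0.17 in MS, and NDUFA9 by 1.03 ± 0.08 and 1.35 ± 0.09. NDUFS4, a small subunit needed for a stable complex, was among those that moved least, by 0.37 to 0.51. NDUFS5 was the accessory subunit that did not pass, with changes of 0.03 to 0.12. NDUFAF3 and NDUFAF4, which help assemble complex I, rose in all 4 genotypes, by 0.60 to 0.78 and by 0.97 to 1.25. NDUFA4L2, a relative of NDUFA4 known to respond to low oxygen, changed by -0.12 to 0.03.

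All 8 complex III genes rose in each genotype, by a median of 1.03 in LW, 1.27 in MS, and 1.12 and 1.22 in the LWMS and MSLW crosses. UQCRFS1, the Rieske iron-sulfur protein that takes the first electron from ubiquinol, had the largest change of any of the 75 genes in MS. In LW its lowest, median and highest values were 4.95, 5.29 and 5.51 at day 90 and 6.33, 7.01 and 7.31 at day 110. In MS they were 4.57, 5.17 and 5.41, then 7.14, 7.49 and 7.93. Day 110 lay wholly above day 90 in both breeds, and the rise was 1.68 ± 0.14 in LW and 2.43 ± 0.15 in MS. The difference between these rises did not pass the threshold. Its only probe is dim, and was well above background on 59 of the 61 arrays. UQCRC1, a core protein of the matrix side, rose by 1.27 to 1.48 over the genotypes. UQCRH, the hinge protein that helps dock cytochrome c, rose least, by 0.46 to 0.64.

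In complex IV the muscle and ubiquitous forms of subunit VIIa parted, the only such pair with both forms measured here. COX7A1, the heart and skeletal muscle form of subunit VIIa, was the gene that rose most in LW. Its lowest, median and highest values in LW were 14.53, 14.89 and 15.22 at day 90 and 16.58, 16.85 and 17.15 at day 110. In MS they were 14.72, 15.20 and 15.62, then 16.87, 17.26 and 17.32. No fetus of day 90 reached a fetus of day 110 in either breed. In LWMS the values were 15.13, 15.28 and 15.94, then 16.88, 17.07 and 17.32. In MSLW they were 14.76, 15.26 and 15.45 at day 90, and the 5 fetuses of day 110 gave 17.45, 17.13, 16.94, 17.23 and 17.08. The ages did not overlap in either cross, with the narrowest gap in LWMS. The fitted rise was 1.95 ± 0.11 in LW, 2.0 ± 0.11 in MS, and 1.72 ± 0.11 and 1.97 ± 0.13 in the LWMS and MSLW crosses (SE, largest adjusted p from limma 6.73e-20).

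COX7A2, the ubiquitous form of the same subunit, changed by 0.10 ± 0.06 in LW, -0.04 ± 0.06 in MS, and -0.05 ± 0.06 and -0.03 ± 0.07 in the LWMS and MSLW crosses, none past the threshold. Its other 5 probes gave 0.10 to 0.23, of which 4 passed in LW and none elsewhere. Parts of the 60-base probes of the pair are shown because the contrast rests on the array telling them apart. In 30 bases of each probe, 5′ to 3′, capitals mark the longest run the probes share on the same strand, 7 bases.
COX7A1: gagtgactatgaCTCTGTGtctggggggca
COX7A2: ttccattcagctCTCTGTGgaccagtaatc

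COX6A1, the ubiquitous form of subunit VIa, fell. Its lowest, median and highest values in LW were 15.02, 15.15 and 15.28 at day 90 and 14.19, 14.44 and 14.76 at day 110. In MS they were 14.95, 15.12 and 15.33, then 13.95, 14.10 and 14.37. Every day 110 fetus was below every day 90 fetus in all 4 genotypes, an order found for 12.9% of all probes in LW and 19.3% in MS, and for 16.3% and 15.6% in the LWMS and MSLW crosses. The fitted change was -0.70 ± 0.07 in LW, -0.99 ± 0.08 in MS, and -0.95 ± 0.07 and -0.91 ± 0.08 in the LWMS and MSLW crosses (SE, largest adjusted p from limma 1.29e-12). Of its 8 probes, the 6 brightest fell in each genotype, and the other 2, with mean levels of 6.35 and 5.26, changed by -0.06 to 0.13 without passing. COX8H, the muscle form of subunit VIII, rose by 0.97 to 1.04. COX4I1, the ubiquitous form of subunit IV, rose by 1.14 to 1.35, and COX4I2, its lung form, changed by -0.33 to 0.14 with an SE of 0.25 to 0.30. These values turn on the MSLW fetus of day 90 that stood apart, which read 6.91. Without it COX4I2 changed by -0.35 in MSLW, -0.33 in LWMS and -0.29 in MS, all past the threshold (largest adjusted p from limma 0.009), and by -0.05 in LW, which did not pass. NDUFA4, first assigned to complex I and now counted in complex IV, rose by 0.88 to 1.07. COX7A2L, a relative of COX7A2 that joins complex III to complex IV, fell by 0.28 to 0.41 on its brighter probe, and its other probe changed by -0.19 to -0.01 without passing. The remaining ubiquitous subunits, COX5A, COX5B, COX6B1, COX6C, COX7B and COX7C, all rose, COX7C least among them in MS, LWMS and MSLW.

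In the ATP synthase the 3 genes of the c subunit, which encode an identical mature protein with different import sequences, also parted. ATP5G1 rose by 1.28 ± 0.08 in LW, 1.47 ± 0.08 in MS, and 1.26 ± 0.08 and 1.31 ± 0.09 in the LWMS and MSLW crosses. ATP5G3 rose by 0.75 to 0.84. ATP5G2 changed by -0.04 ± 0.07 in LW, -0.05 ± 0.08 in MS, and -0.21 ± 0.07 and -0.13 ± 0.08 in the LWMS and MSLW crosses, none past the threshold, and its second probe passed in MS only, at 0.25 ± 0.06. The value in LWMS passed as a fall under 7 of 17 other settings and as a rise under 1, centring on the 75th percentile. All 5 genes of the F1 head rose: ATP5A1 and ATP5B, the subunits that bind nucleotides, by 0.82 to 0.97 and 1.06 to 1.23, ATP5C1 by 1.16 to 1.21, ATP5D by 1.00 to 1.26, and ATP5E by 0.16 to 0.41. In the stalk and membrane part, 9 of 10 genes rose in each genotype, with medians of 0.79 in LW, 0.83 in MS, and 0.72 and 0.80 in the LWMS and MSLW crosses.

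**Figure D2:**
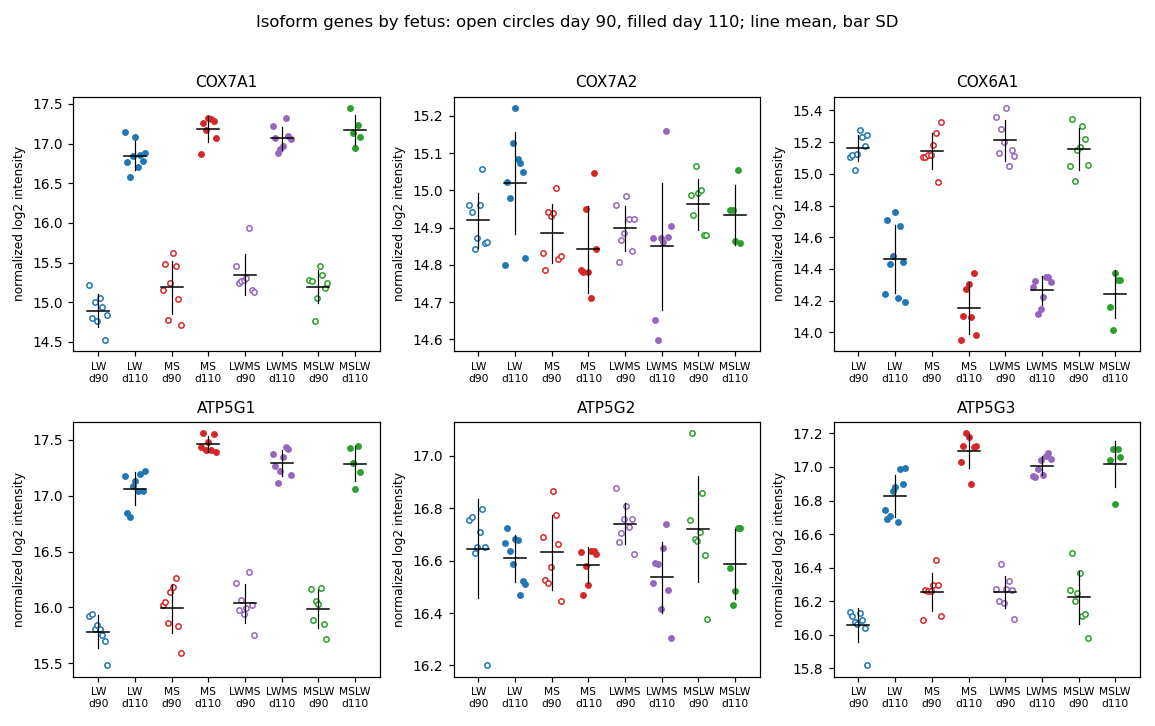
Normalized log2 intensity (y axis, 1 scale per gene) of 6 isoform genes in each fetus, by genotype and day, with the mean as a line and the SD as a bar. COX7A1, ATP5G1 and ATP5G3 lie higher at day 110 in every genotype and COX6A1 lies lower, while the 2 ages overlap for COX7A2 and ATP5G2.

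Genes that work beside these subunits were counted against the same shares of all probes, 20.8% to 28.6% higher. All 8 genes of complex II and the electron carriers rose in each genotype, by medians of 1.16 to 1.29. Among them CYCS, cytochrome c, rose by 1.38 to 1.49 and SDHB, an iron-sulfur subunit of complex II, by 1.24 to 1.36. Of 18 assembly factors outside the name rule, 15 rose in LW, 12 in MS, and 12 and 13 in the LWMS and MSLW crosses, and none fell. Of 18 genes of mitochondrial import, membrane and matrix, 13 rose in LW, 15 in MS, and 14 and 13 in the LWMS and MSLW crosses, and none fell. The import receptor TOMM22 was among those that did not pass, at -0.14 to -0.07.

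The values depend on how arrays are scaled. Most of these genes are bright: the median of their mean log2 intensities, 14.84, stood at the 96.84th percentile of all probes. NDUFA10, NDUFB1 and UQCRFS1, with means of 5.62, 5.69 and 6.24, lay below the median of all probes, 8.18. When each array was instead centred on its 75th percentile, the median age change of all probes moved from 0.03 to 0.13 in MS and the medians of the 75 genes became 1.13 in LW, 1.60 in MS, and 1.30 and 1.34 in the LWMS and MSLW crosses. With that scaling 71 genes rose and 1 fell in each genotype: ATP5G2, COX7A2 and NDUFS5 joined those that rose, and the fall of COX7A2L was lost. COX6A1 still fell, by 0.34 in LW, 0.37 in MS, and 0.45 and 0.43 in the LWMS and MSLW crosses. Among the 1343 probes at least as bright as the members' median, 27.8% to 31.2% were higher at day 110 with quantile normalization, by genotype. Their median age change lay between -0.19 and -0.11 with quantile normalization and between 0.20 and 0.52 with centring on the 75th percentile.

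Markers of other cell types moved with age as well. All 7 markers of fibroblasts and connective tissue fell in each genotype, with medians of -1.20 in LW, -2.09 in MS, and -1.45 and -1.60 in the LWMS and MSLW crosses. Their summed normalized intensity ran from 430000 to 558000 in LW at day 90 and from 150000 to 243000 at day 110, and in MS from 481000 to 528000 and then from 95000 to 123000. In LWMS it went from 443000 to 529000 down to 116000 to 213000, and in MSLW from 455000 to 573000 down to 136000 to 224000. Of 6 endothelial markers 4 fell and 1 rose, and of 13 markers of muscle fibres 7 rose in LW, 8 in MS, and 9 and 8 in the LWMS and MSLW crosses, while 1 fell in each genotype. The summed intensity of 4 smooth muscle markers went from 175000 to 226000 up to 365000 to 425000 in MS, and was also higher without overlap in LWMS and MSLW but not in LW, although by gene only 1 of the 4 rose and 1 fell in each genotype. Markers of nerve, fat, blood and leukocytes had 1 to 3 genes per list that passed. In whole muscle, fewer cells of a type and less RNA per cell cannot be told apart, and the part of these shifts in the rise of the chain was not tested.

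Breed was compared next, which bears on the question of how far MS and LW muscle differ in maturity before birth. At day 90, 11 of the 75 genes exceeded their LW level in MS and 5 were below it, where 12.8% of all probes differed (6.23% higher and 6.61% lower). At day 110, 45 were higher and 3 lower, where 29% of all probes differed (13.7% higher and 15.2% lower). The median difference of the 75 genes was 0.11 at day 90 and 0.28 at day 110, and that of all probes was -0.00 and 0.01. Higher in MS at both ages were 10 genes: ATP5F1, COX6B1, COX8H, NDUFA4, NDUFAF3, NDUFB11, NDUFB3, NDUFB8, NDUFB9 and UQCRC1. These calls rest on the brightest probe of each gene. At day 90, 1 of 7 NDUFB8 probes, 4 of 13 of ATP5F1, 2 of 4 of COX6B1 and 1 of 2 of NDUFB11 passed. For NDUFA4 6 of 7 passed, for NDUFB9 3 of 4, and for COX8H and UQCRC1 2 of 2. COX7B was lower in MS at both ages, and 22 genes passed at neither age. With centring on the 75th percentile, the split was 2 higher and 3 lower at day 90, and 59 higher and 1 lower at day 110.

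NDUFB9, an accessory subunit of complex I, was the gene most above LW at day 90. Its lowest, median and highest values at day 90 were 15.37, 15.64 and 15.86 in LW and 15.94, 16.20 and 16.50 in MS. At day 110 they were 16.03, 16.38 and 16.97 in LW and 17.09, 17.24 and 17.29 in MS. The breeds did not overlap at either age, and MS exceeded LW by 0.59 ± 0.11 at day 90 (adjusted p 2.11e-05, limma) and 0.76 ± 0.11 at day 110 (6.14e-08). NDUFB1, a small accessory subunit, differed most at day 110, by 0.86 ± 0.14, with 0.18 ± 0.14 at day 90. COX8H was higher in MS by 0.54 ± 0.11 and then 0.57 ± 0.11, while COX7A1 did not pass, at 0.29 ± 0.11 and 0.33 ± 0.11. In the complex I core no gene differed at day 90, and 5 of 6 were higher in MS at day 110, NDUFV1 by 0.70 ± 0.13 and NDUFS1 by 0.67 ± 0.10. The second probe of NDUFS1, with a mean of 4.51, gave -0.07 at day 110 and did not pass. Of the F1 head, ATP5A1, ATP5B, ATP5C1 and ATP5D were higher in MS at day 110, by 0.22 to 0.38, and ATP5E did not pass, at -0.15 ± 0.05.

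The genes lower in MS were few. COX6A1 was lower at day 110, by 0.31 ± 0.07, a difference that became 0.08 and no longer passed when arrays were centred on the 75th percentile. NDUFA6, an accessory subunit, was lower at day 90, by 0.45 ± 0.09, and differed by 0.06 ± 0.09 at day 110. Its dimmer probe gave -0.07 ± 0.13, not past the threshold, and was then higher in MS at day 110, by 0.55 ± 0.13. COX7A2L was lower at day 90, by 0.23 ± 0.07, a call that was lost under several other settings. UQCRC2 and COX5A were lower at day 90 and NDUFC2 at day 110, and their values by probe close the account. Beside the breed differences, 6 of the 7 markers of fibroblasts and connective tissue were lower in MS at day 110, with a median of -0.94 over the 7, and none differed at day 90. The summed intensity of 5 adipocyte markers at day 110 was 5480 to 10600 in MS and 12500 to 22900 in LW, with 1 gene lower in MS. That of 4 nerve markers at day 90 was 14700 to 21800 in MS and 9460 to 13000 in LW, with 1 gene higher. Their part in the differences was not tested.

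The test of whether the change with age differed between the breeds gave fewer calls. Of the 75 genes, 6 rose more in MS than in LW and none less, where 5.95% of all probes differed (2.56% with the larger value in MS and 3.39% with the smaller). They were NDUFA3 (0.71 ± 0.15), NDUFS1 (0.55 ± 0.14), NDUFB5 (0.52 ± 0.12), NDUFA6 (0.51 ± 0.12), ATP5S (0.50 ± 0.13) and NDUFA12 (0.40 ± 0.11), with adjusted p-values from limma of 0.000745 to 0.00729. A further 58 had a larger change in MS without passing, so that 64 of 75 fitted values lay above 0. The median of the 75 was 0.17, against -0.004 for all probes. The genes were read in the same fetuses, so their directions are not independent. The second probes of NDUFS1 and NDUFA6 gave 0.15 and 0.62 for the difference in age change, neither past the threshold. For NDUFA3, an accessory subunit, the lowest, median and highest values at day 90 were 12.03, 12.27 and 12.79 in LW and 11.92, 12.23 and 12.61 in MS, which overlap. At day 110 they were 12.81, 13.23 and 13.47 in LW and 13.68, 13.75 and 14.12 in MS, which do not. The count was 26 with centring on the 75th percentile, 3 without the filter on dim probes and 2 when LW and MS were fitted alone. Centring on the 75th percentile also moved the 1343 probes at least as bright as the members' median, a set that includes the brighter members. Their median went from -0.09 to 0.30 for the difference in age change, and from -0.09 to 0.23 for MS against LW at day 110.

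**Figure D3:**
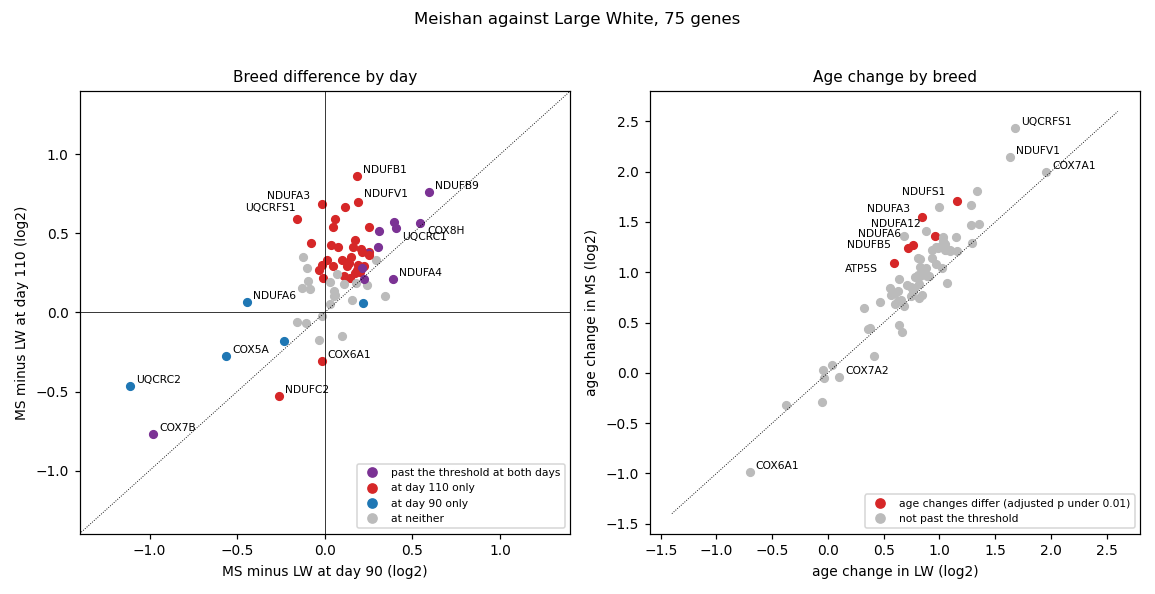
Left, difference between MS and LW on the log2 scale at day 90 (x axis) and at day 110 (y axis) for each of the 75 genes, coloured by the day at which it passed an adjusted p of 0.01. Right, change with age in LW (x axis) and in MS (y axis), with the 6 genes whose changes differed between breeds in red, and a dotted line where both axes are equal; 64 genes lie above it.

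The reciprocal crosses carry the same nuclear autosomes from opposite parents, so their comparison addresses the direction of the cross. COX7B, a small ubiquitous subunit of complex IV, was the only gene of the 75 that differed between LWMS and MSLW, at day 90, where 0.5% of all probes did, and at day 110, where 0.912% did. At an unadjusted p under 0.05 there were 6 genes at each age, but the share of all probes at that limit was not counted. At day 90 the lowest, median and highest values of COX7B were 14.68, 14.85 and 14.87 in LW and 14.81, 14.96 and 15.08 in MSLW. They were 13.54, 13.86 and 14.07 in MS and 13.52, 14.01 and 14.33 in LWMS. All fetuses of LW sows thus lay above all fetuses of MS sows, whatever the boar. At day 110 the values were 15.16, 15.40 and 15.63 in LW, and the 5 MSLW fetuses gave 15.43, 15.60, 15.43, 15.72 and 15.54. They were 14.17, 14.59 and 14.93 in MS and 14.29, 14.47 and 14.92 in LWMS. The groups again parted by the breed of the sow with no overlap.

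LWMS was below MSLW by 1.04 ± 0.10 at day 90 (adjusted p 6.29e-12, limma) and by 1.01 ± 0.11 at day 110 (2.49e-09), and MS was below LW by 0.98 ± 0.10 and 0.77 ± 0.10. In a contrast added after these values were seen, MS sows against LW sows gave -1.01 ± 0.07 at day 90 and -0.89 ± 0.07 at day 110, and MS boars against LW boars gave 0.03 ± 0.07 and 0.12 ± 0.07. Of all probes, 6.48% and 15.1% differed between sows at the same ages, and 5.14% and 13.3% between boars. Within the slides that held both crosses, the difference ran from -1.56 to -0.48 at day 90 over 8 slides and from -1.34 to -0.61 at day 110 over 5. COX7B lies on the X chromosome in mammals, and a male receives his X from his mother, so the breed of the sow and the breed of the X chromosome cannot be told apart in these fetuses. COX7B rose with age all the same, by 0.57 ± 0.10 in LW, 0.77 ± 0.10 in MS, and 0.63 ± 0.10 and 0.60 ± 0.11 in the LWMS and MSLW crosses.

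A second probe on the array overlaps that of COX7B by 57 bases but carries the name LOC100516480. It gave -0.87 ± 0.08 at day 90 and -0.84 ± 0.09 at day 110 between the crosses, and -0.76 ± 0.08 and -0.56 ± 0.08 between the breeds, all past the threshold. The 2 probes are shown because they read nearly the same stretch, so they are not independent, and a base difference between the breeds within it was not tested. Their first 30 bases are given 5′ to 3′, with the shared run in capitals.
COX7B: CTCATAATTGATGCCAAGTAAAAGCACTGT
LOC100516480: cacCTCATAATTGATGCCAAGTAAAAGCAC

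NDUFB11 and NDUFA1, complex I subunits that are X-linked in mammals too, can be set beside it. The brighter NDUFB11 probe was higher in MS than in LW by 0.40 ± 0.09 at day 90 and 0.58 ± 0.09 at day 110. Between sows it gave 0.34 ± 0.06 and 0.45 ± 0.07, both past the threshold, and between boars 0.06 ± 0.06 and 0.12 ± 0.07. Its second probe gave less, at 0.11 ± 0.08 and 0.25 ± 0.08 between breeds and 0.04 ± 0.05 and 0.13 ± 0.06 between sows, of which only the breed difference at day 110 passed. The 2 probes agree in 58 of 60 bases and differ by C20T and A55C, counted from 1 at the 5′ end with the base of the first probe given first. Bases 10 to 39 are shown 5′ to 3′, with the base that differs there in capitals.
NDUFB11 probe 1: attctgccctCctctcagagcacctaatta
NDUFB11 probe 2: attctgccctTctctcagagcacctaatta

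NDUFA1 differed by -0.06 ± 0.05 and 0.11 ± 0.05 between sows, neither past the threshold.

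**Figure D4:**
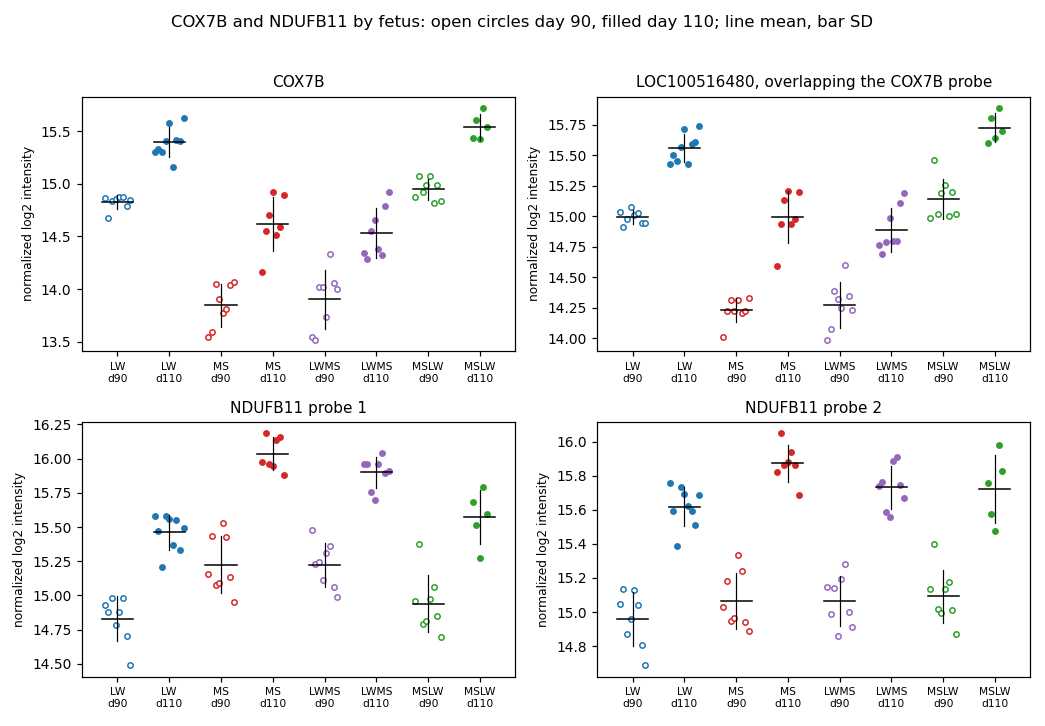
Normalized log2 intensity (y axis, 1 scale per probe) in each fetus for COX7B, the probe that overlaps it and both NDUFB11 probes, by genotype and day, with the mean as a line and the SD as a bar. LW and MSLW fetuses lie above MS and LWMS fetuses for COX7B and its neighbour within each age, and the brighter NDUFB11 probe has its means in the opposite order.

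The largest differences between the crosses after COX7B did not pass: COX5A was higher in LWMS by 0.57 ± 0.17 at day 90 (adjusted p 0.103, limma) and UQCRC2 by 0.49 ± 0.18 at day 110 (0.154). In the contrast between boars, added after the values were seen, both were lower in fetuses of MS boars at day 90. COX5A was lower by 0.57 ± 0.12 and UQCRC2 by 0.68 ± 0.11, past the threshold, where 5.14% of all probes differed. The day 90 means of UQCRC2 on its brighter probe were 12.99 in LW, 12.64 in LWMS, 12.39 in MSLW and 11.87 in MS. On that probe fetuses of MS sows were thus lower on average too, with either breed of boar. In the same order of genotypes, its other probe gave 11.8, 11.7, 11.3 and 11.4, and COX5A gave 14.76, 14.81, 14.24 and 14.19. No gene differed between the crosses and the mid-parent value at day 90, where 0.0495% of all probes did, or at day 110, where 0.0778% did (limma). At an unadjusted p under 0.05 there were 18 genes and 6 genes, all higher in the crosses. The share of all probes at that unadjusted limit was not counted, here or for the comparisons by age that follow. None of these unadjusted counts is therefore read as a result. The median difference of the 75 genes was 0.09 at day 90 and 0.04 at day 110, against 0.01 and 0.00 for all probes. No gene passed for the boar's breed by age, where 0.497% of all probes did, with 12 genes at an unadjusted p under 0.05. NDUFA3 was the only one that passed for the sow's breed by age, where 2.91% did, at 0.42 (adjusted p 0.0093, limma), and 20 genes had an unadjusted p under 0.05. That call was lost without any 1 of 3 of the 5 MSLW fetuses of day 110, without the MSLW fetus of day 90 that stood apart, without the filter on dim probes, and with non-uniform spots kept.

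Probes of the same gene agreed less often on breed than on age. Of the 40 genes with more than 1 probe, every probe was called in the same direction in 2 at day 90 and 11 at day 110. Some probes passed and others did not in 13 genes at day 90 and 16 at day 110. Only ATP5B, at day 110, had probes called in opposite directions. ATP5B, the catalytic subunit of F1, had 10 probes. At day 110, 9 of them were higher in MS, by 0.24 to 0.41, and the other was lower, by 0.54 ± 0.16. At day 90 that probe was lower by 1.43 ± 0.16, while the other 9 gave -0.01 to 0.25 and none passed. All 10 rose with age in all 4 genotypes. UQCRC2, a core protein of complex III, was lower in MS at day 90 by 1.11 ± 0.16 on its brighter probe and by 0.38 ± 0.14, not past the threshold, on the other, and at day 110 the probes gave -0.46 ± 0.16 and 0.05 ± 0.14, neither past the threshold. NDUFC2, a membrane subunit of complex I, was lower in MS at day 110 by 0.53 ± 0.13 on its brighter probe and by 0.06 ± 0.09 on the other. COX5A, which with COX4 forms the regulatory side of complex IV, was lower in MS at day 90 by 0.57 ± 0.17, a call that was lost under several other settings.

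The probe named LOC100156967 shares 44 bases with that of COX5A and differed more, by -2.42 ± 0.68 at day 90, which passed, and -1.43 ± 0.69 at day 110, which did not. Its 8 MS fetuses at day 90 spread from 5.35 to 12.09 around a median of 9.98, and its 8 LW fetuses from 10.48 to 12.77 around 11.92, which overlap. Bases 14 to 43 of the COX5A probe and the first 30 of the other are shown 5′ to 3′ for the overlap, with the shared run in capitals.
COX5A: actGTGTATGTAACTTGGACTTTAATAAAA
LOC100156967: GTGTATGTAACTTGGACTTTAATAAAAGGG

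**Figure D5:**
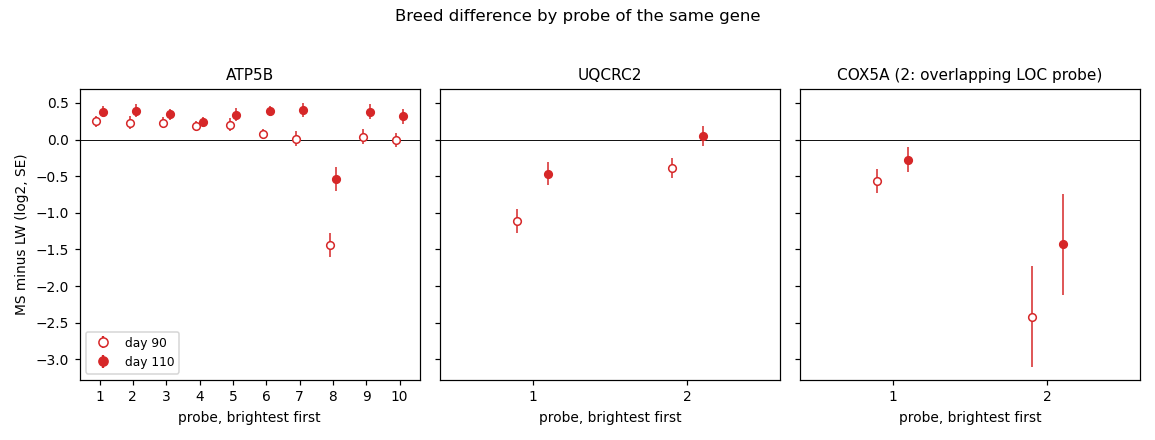
Difference between MS and LW (y axis, log2, with SE) at day 90 and day 110 for each probe of ATP5B and UQCRC2 (x axis, brightest first), and for COX5A and the LOC100156967 probe that overlaps it. At day 110, 9 ATP5B probes lie above 0 and probe 8 lies below it.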

How the data were processed

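Total RNA of each of the 61 fetuses was labelled with Cy3 and hybridized to 1 Agilent array, 8 arrays to a slide at most. The authors deposited the scanner output of Agilent Feature Extraction 10.10.1.1, in which intensity columns are linear spot signals with the background already handled in the processed signal, and a table of normalized log2 values, which ranked spots as the median signal did on every array and was used as an alternative. The sow, random in the authors' mixed model, is not in the labels and was left out. Here the processed signal of 60306 non-control spots was quantile normalized with non-uniform spots set to missing, spots of a probe were averaged on the log2 scale, and probes well above background on 80% of the arrays of a group were kept. Per array, 34346 to 45683 probes were well above background, and the number of arrays limits the precision. limma 3.58.1 in R 4.3.3 fitted the 8 groups, 13 contrasts and 4 added later, with Benjamini-Hochberg adjustment at 0.01 over 42436 probes, and was tested on simulated data. Named genes were the isoform genes, the complex I core, the F1 subunits, members on the study's lists and, per contrast with a call, up to 3 genes at each end. A gene was read from its brightest probe. COX6B was joined to COX6B1. Of the genes, 1 is counted but not reported here by name. The members and lists were chosen with earlier results of these data known. Alternatives changed the signal, background correction, scaling, filter, spots, slide, samples and probe.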

Additional observations from a re-analysis of the deposited data

Results flagged for a closer look

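Among 336 pairs of a gene and a group, 21 held a fetus whose value lay far from the rest of its group by Dixon's gap test, which chance alone does in about 1 group in 20. In MSLW fetuses of day 90, replicate 2, the array that stood apart, was the extreme for ATP5O (14.99), ATP5S (9.21), COX4I2 (6.91) and NDUFV1 (10.14), and replicate 8 for NDUFC2 (13.86). In MSLW fetuses of day 110, replicate 3 was the extreme for ATP5G3 (16.78), NDUFB5 (12.80) and NDUFC2 (14.67), replicate 1 for COX7A2L (12.44) and replicate 4 for NDUFS3 (14.58). In LW fetuses of day 90, replicate 8 was the extreme for ATP5G2 (16.20), ATP5G3 (15.82) and NDUFA4L2 (12.31), and replicate 2 for COX7B (14.68). In MS fetuses they were ATP5B (17.71, replicate 3), NDUFB1 (7.24, replicate 4) and NDUFB5 (13.73, replicate 2) at day 110, and UQCRC2 (12.56, replicate 4) at day 90. In LWMS fetuses they were COX4I2 (11.03, replicate 1) and COX7A1 (15.94, replicate 6) at day 90, and NDUFB1 (5.70, replicate 3) at day 110.

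The change with age differed between MS and LW for NDUFA3 (0.71), NDUFS1 (0.55), NDUFB5 (0.52), NDUFA6 (0.51), ATP5S (0.50) and NDUFA12 (0.40), and between sows of MS and of LW for NDUFA3 (0.42), each by the interaction term in limma.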

How the results depend on the processing

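No paired analysis was possible because the labels give no replicate numbers, and those used here only follow the order of deposit. Slide, which held most groups, was fitted as a fixed and as a random block instead. No call reversed its direction under the 18 alternatives. Age changes that had not passed did turn: ATP5G2 in MS from -0.05 to 0.72 and COX7A2 in MS from -0.04 to 0.64 with centring on the 75th percentile, and COX4I2 in MSLW from 0.14 to -0.35 without replicate 2 of MSLW at day 90, all then past the threshold. Of 200 calls on 42 named genes, between 0 and 11 were lost per alternative, most with centring on the 75th percentile. Counts within 1.5 times of those reported are not repeated. Centring on the 75th percentile gave 5 genes for MS against LW at day 90 and 26 for the difference in age change between breeds, which was 3 without the filter on dim probes and 2 with LW and MS fitted alone. LWMS against MSLW gave 2 genes at day 110 with normexp background and 2 at day 90 with slide as a fixed block. The sow's breed by age gave 0 genes without the filter and with non-uniform spots kept, and 0 to 1 when each MSLW fetus of day 110 was left out in turn. It also gave 0 without replicate 2 of MSLW at day 90 and without the 3 arrays with the most non-uniform spots, both chosen after the data were seen. The cause was not tested. Within single slides, the median age change of the 75 genes ran from 0.58 to 1.09.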
